A study of Mus musculus with 2 samples.

Results

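Transcripts of 10 genes of the core Hippo pathway were followed in ventricular interstitial cells of the mouse after myocardial infarction (MI), and the deposited tables hold 9 of them among 15181 gene symbols. The genes were taken by symbol: the co-activators Yap1 and Wwtr1 (which encodes TAZ), the DNA-binding partners Tead1, Tead2, Tead3 and Tead4, and the kinases Lats1, Lats2, Stk3 (which encodes MST2) and Stk4 (which encodes MST1). Tead4 has no row in any of the 22 tables, so no value can be given for it. Single cell RNA was read by droplet sequencing in 2 libraries, 1 per genotype. The control library came from PostnMCM hearts, in which the Postn locus drives a tamoxifen-inducible Cre recombinase in fibroblasts that turn into myofibroblasts. The second library came from Yapfl/fl;Wwtr1fl/+;PostnMCM hearts, with loxP sites in both Yap1 alleles and in 1 Wwtr1 allele, and is called here the library labelled depleted. Both groups carried the R26-eGFP transgene, had the left anterior descending artery ligated at 8 to 10 weeks of age and were fed 0.4 g/kg tamoxifen chow from surgery on. Tissue was taken on day 6 after MI per the labels and on day 7 per the methods text. How many hearts each library pooled is not given in the sources used here. Cre is made from the Postn locus alone, so cells that never express Postn are not targeted, and recombination itself was not measured in these tables.

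The Hippo pathway is a kinase cascade that restrains growth. The MST kinases, with the scaffold Sav1, activate the LATS kinases, which work with Mob1a and Mob1b and phosphorylate YAP and TAZ, so that both are held in the cytoplasm or degraded. Unphosphorylated YAP and TAZ enter the nucleus, where they bind no DNA themselves and act through TEAD proteins on genes such as Ccn1 and Ccn2. In the heart this pathway is known for its part in fibroblast activation and scar formation.

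Cre removes genomic sequence, whereas a library read from the 3′ end of transcripts counts whatever message is still made, so the positions of the targeted loci are given first. Yap1 lies on chromosome 9 (7932000 to 8004661, minus strand) and Wwtr1 on chromosome 3 (57363067 to 57483331, minus strand) of GRCm39, both protein coding in GENCODE. Which exons the loxP sites flank is not given in the sources used here, so whether the counted ends lie outside the deleted parts is open. Tead1 (112278522 to 112506014) and Tead2 (44865172 to 44883071) are both on the plus strand of chromosome 7. The 250 bases before the start site of Yap1, Wwtr1 and Tead2 are shown because the first pair are the targeted genes and Tead2 had the largest difference of the 9. They were read from RefSeq promoter windows of GRCm38.p6, which hold 7 of the 10 genes and lack Tead1, Tead4 and Stk3. Capitals mark GGAATG, the letters of the element that TEAD proteins bind, which was searched on both strands (its reverse complement is CATTCC).
Yap1, chr9:8004597-8004846, minus strand: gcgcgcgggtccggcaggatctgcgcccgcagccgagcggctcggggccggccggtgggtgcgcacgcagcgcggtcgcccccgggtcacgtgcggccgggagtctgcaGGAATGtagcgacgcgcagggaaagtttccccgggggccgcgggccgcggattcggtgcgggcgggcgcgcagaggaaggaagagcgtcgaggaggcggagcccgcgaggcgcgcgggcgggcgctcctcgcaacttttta
Wwtr1, chr3:57575911-57576160, minus strand: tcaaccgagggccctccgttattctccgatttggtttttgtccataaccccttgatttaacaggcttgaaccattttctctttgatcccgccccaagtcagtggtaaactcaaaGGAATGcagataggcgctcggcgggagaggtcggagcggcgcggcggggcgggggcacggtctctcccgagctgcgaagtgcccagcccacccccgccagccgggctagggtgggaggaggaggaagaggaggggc
Tead2, chr7:45215542-45215791, plus strand: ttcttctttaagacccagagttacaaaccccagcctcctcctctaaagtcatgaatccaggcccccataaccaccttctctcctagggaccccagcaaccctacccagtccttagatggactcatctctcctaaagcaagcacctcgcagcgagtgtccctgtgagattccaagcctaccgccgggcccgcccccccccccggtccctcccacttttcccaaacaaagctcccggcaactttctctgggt

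The letters stand 141 bases before the start of Yap1 and 136 bases before that of Wwtr1, and the Tead2 window holds none. The 7 genes have 11 windows, several starting at another transcript start of the same gene, and 5 of them, from the 3 genes Yap1, Wwtr1 and Tead3, held a match. The pair of Wwtr1 windows overlap and hold the same letters, which stand 170 bases before the other start, so that 1 place is counted in both. Over all 32851 promoter windows of the same length, 12.6% held the letters. A match is a description of the sequence and shows no binding.

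Each value below is the percent of cells of a cluster or subcluster in 1 library that had a corrected count of the gene above 0. The subclusters 0, 3, 4 and 5 are parts of the fibroblast cluster, cluster 5, and their tables list 15059 genes each without limits, whereas the 18 cluster tables list 159 to 1914 genes each. The tables give no cell numbers or counts per cell for a cluster, so no interval or detection limit accompanies a share, and with 1 library per genotype no test was possible. The shares themselves were coarse: in subcluster 4 those of the library labelled depleted took 11 distinct values, 10 points apart, and in subclusters 0, 3 and 5 they stood at least 3.1, 4.3 and 4.7 points apart. A difference of at least 10 percentage points is used to mark a gene, which is thus a single step in subcluster 4. Values of subcluster 4 therefore rest on the fewest distinct shares and are the least precise. The fibroblast label was checked on fixed markers. Col1a1, Col1a2, Col3a1 and Dcn, which encode collagen chains and decorin, were counted in 100% of cells of both libraries in all 4 subclusters. The other 3 of the 7 markers varied. Pdgfra, a receptor of fibroblasts, was counted in 38.6% of control cells and 71.9% of the other cells in subcluster 0 and in at least 66.7% elsewhere. Tcf21, a transcription factor of resident fibroblasts, was nearly absent from subclusters 0 (2.1% and 0%) and 3 (6.7% and 8.7%), and stood at 35% and 20% in subcluster 4 and at 43.5% and 81.0% in subcluster 5. Postn is given with the targeted genes. The epicardial markers Wt1 and Upk3b were counted in at least 92.5% of control cells of subclusters 0, 3 and 4, against 73.9% and 21.7% in subcluster 5. In the library labelled depleted Upk3b was counted in 90.6%, 60.9%, 70% and 4.8% of cells of subclusters 0, 3, 4 and 5, and Wt1 in 96.9%, 100%, 100% and 14.3%. Msln, the remaining epicardial marker, stood at 50.3%, 43.3%, 47.5% and 8.7% in the control library and at 62.5%, 39.1%, 60% and 0% in the other. The genotypes also fill the subclusters unequally. Per the study, subclusters 0, 2 and 4 held mostly control cells and subcluster 1 mostly cells of the library labelled depleted. What part of the latter library's fibroblasts each compared subcluster holds is not given. The libraries stood apart in transcripts of immune cells. The summed share of 4 neutrophil markers ran from 208.7 to 240.0 in the control library and from 103.1 to 133.3 in the library labelled depleted, and that of 6 macrophage markers from 278.2 to 353.2 and from 190.5 to 280.0. No neutrophil marker was higher by 10 points in any subcluster, 13 of 16 values were lower by that much, and 14 of 24 macrophage values were lower against 3 higher. The part of these transcripts in the differences below was not tested.

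The targeted co-activators came first. Yap1 was counted in 46.2% of control cells and in 56.2% of cells from the other library in subcluster 0, in 23.3% and 43.5% in subcluster 3, in 57.5% and 40% in subcluster 4 and in 30.4% and 47.6% in subcluster 5. Its share was thus higher in the library labelled depleted in 3 of the 4 subclusters, by 10.0 to 20.2 points, and lower in subcluster 4, with a difference of -17.5 points. Its share does not follow the label in these 3 subclusters, and directions given here rest on the label alone. YAP and TAZ protein, which the study stained in sections of this genotype, is not read here. Wwtr1 was counted in 81.4% and 90.6% of cells in subcluster 0, 93.3% and 91.3% in subcluster 3, 80% and 60% in subcluster 4 and 100% and 85.7% in subcluster 5, the control library first. Wwtr1 was the more widely counted co-activator in each of the 8 populations, and it was lower by at least 10 points in subclusters 4 and 5 alone. In subcluster 4 both co-activators were lower and in subcluster 0 both were higher, while in subclusters 3 and 5 they differed in direction. Postn, the driver of Cre, was counted in 25.5% and 28.1% of cells in subcluster 0, 40% and 13.0% in subcluster 3, 10.0% and 20% in subcluster 4 and 87.0% and 100% in subcluster 5. The subcluster with the highest share of Postn-positive cells was therefore one in which Wwtr1 was lower and Yap1 higher in the library labelled depleted.

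**Figure D1:**
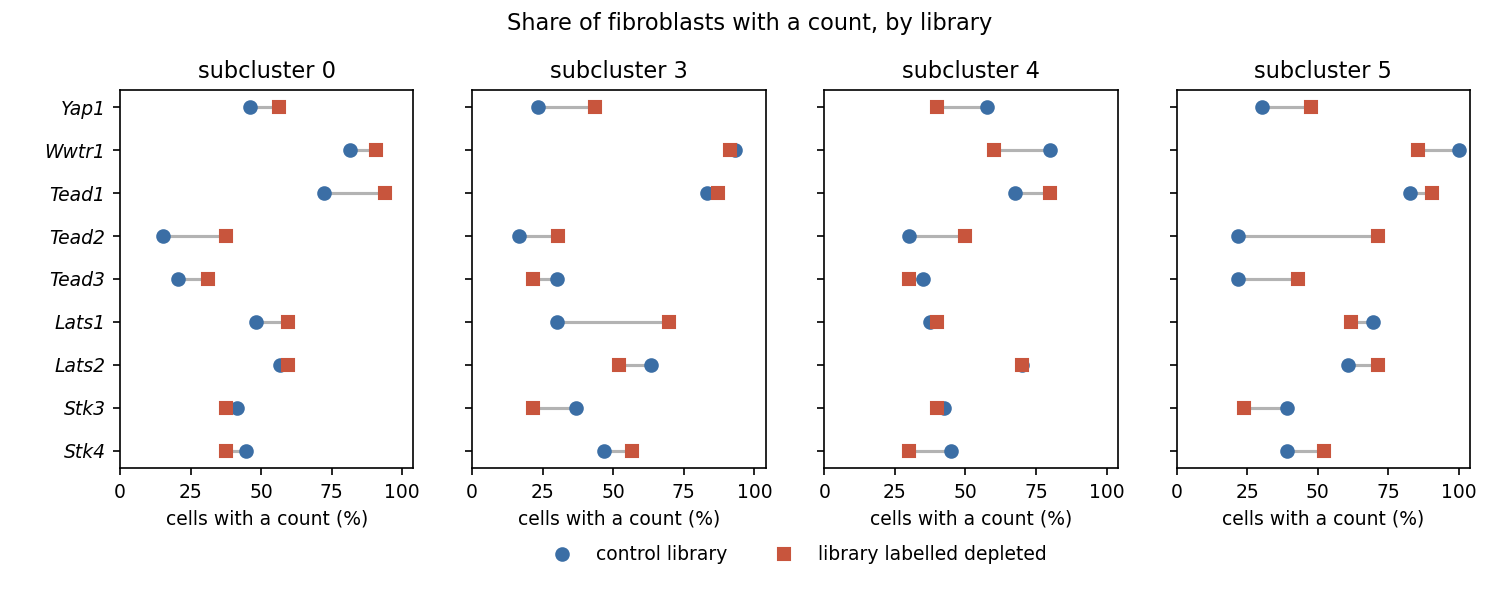
Percent of cells with a count (x axis) for each gene (rows) in the 4 fibroblast subclusters (panels), with blue circles for the control library and red squares for the library labelled depleted. Each point is 1 library and has no error bar. Tead2 lies to the right in the library labelled depleted in all 4 panels and Stk3 to the left.

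Among the TEAD transcription factors, Tead1 and Tead2 had a higher share in the library labelled depleted in every subcluster. Tead1, the most widely counted TEAD, was found in 72.4% of control cells and 93.8% of cells of the library labelled depleted in subcluster 0, 83.3% and 87.0% in subcluster 3, 67.5% and 80% in subcluster 4 and 82.6% and 90.5% in subcluster 5. The gaps were 21.4, 3.7, 12.5 and 7.9 points, so that the 10-point mark was passed in subclusters 0 and 4. The shares of the libraries overlapped across subclusters, with a control range of 67.5% to 83.3% and a range of 80% to 93.8% in the other library. Tead2, which was counted in few control cells, stood at 15.2% and 37.5% in subcluster 0, 16.7% and 30.4% in subcluster 3, 30% and 50% in subcluster 4 and 21.7% and 71.4% in subcluster 5. Its lowest share in the library labelled depleted, 30.4%, lay just above its highest control share, 30%. The gap of 49.7 points in subcluster 5 was the largest among the 36 values of the 9 genes, and 99.8% of the genes of that table had a smaller difference. In subclusters 0, 3 and 4, where the gaps were 22.3, 13.7 and 20 points, 98.9%, 92.0% and 90.3% of genes had a smaller difference.

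Of 10979 genes with a mean share of at least 10% over these 8 populations, 85 (0.774%) were higher by at least 10 points in all 4 subclusters, as Tead2 was, and 7.87% were higher by any amount in all 4, as Tead1 was. The subclusters come from the same libraries, so agreement between them is no replication of the genotype. Tead3 followed no single direction. It was counted in 20.7% and 31.2% of cells in subcluster 0, 30% and 21.7% in subcluster 3, 35.0% and 30% in subcluster 4 and 21.7% and 42.9% in subcluster 5. Tead3 was therefore higher by over 10 points in subclusters 0 and 5 and lower in subclusters 3 and 4, with differences of -8.3 and -5.0 points. In every control subcluster Tead1 was counted in more cells than Tead2 and Tead3, while in subcluster 5 of the library labelled depleted Tead2, at 71.4%, stood closer to Tead1, at 90.5%, than in any other population of that library.

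The LATS kinases, which phosphorylate YAP and TAZ, differed less evenly. Lats1 was counted in 48.3% of control cells and 59.4% of cells of the library labelled depleted in subcluster 0, 30% and 69.6% in subcluster 3, 37.5% and 40% in subcluster 4 and 69.6% and 61.9% in subcluster 5. Its gap of 39.6 points in subcluster 3 exceeded the difference of 99.9% of the genes of that table. The control shares of Lats1 alone ran from 30% to 69.6%, so that its spread between subclusters of 1 library was as wide as this gap. Lats2, itself a known YAP/TAZ target, stood at 56.6% and 59.4% in subcluster 0, 63.3% and 52.2% in subcluster 3, 70.0% in both libraries in subcluster 4 and 60.9% and 71.4% in subcluster 5. Its differences ran from -11.1 to 10.5 points, a narrower range than that of any other member but Stk3 and Tead1. 

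The MST kinases stand at the top of the cascade. Stk3 was the only member with a lower share in the library labelled depleted in all 4 subclusters: 41.4% of control cells and 37.5% of the other cells had a count in subcluster 0, 36.7% and 21.7% in subcluster 3, 42.5% and 40% in subcluster 4 and 39.1% and 23.8% in subcluster 5. The differences of -15 and -15.3 points in subclusters 3 and 5 passed the mark, and those of -3.9 and -2.5 points in subclusters 0 and 4 stand beside steps of 3.1 and 10 points in the shares of the library labelled depleted. A lower share in all 4 subclusters was found for 6.4% of the 10979 genes, and one lower by at least 10 points in all 4, which no member had, for 0.556%. Stk4 went both ways, with 44.8% and 37.5% in subcluster 0, 46.7% and 56.5% in subcluster 3, 45.0% and 30% in subcluster 4 and 39.1% and 52.4% in subcluster 5. In subclusters 3 and 5 Stk4 was higher by 9.8 and 13.3 points while Stk3 was lower. In subclusters 0 and 4 both were lower, Stk4 with differences of -7.3 and -15.0 points.

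Over all 36 values, 15 were higher by at least 10 points in the library labelled depleted, 7 were lower by that much and 14 lay within the mark. In subcluster 0, 5 of 9 genes were higher and 0 lower, where 10.8% of all genes were higher and 9.85% lower by the same mark (14.7% and 12.9% of genes with a mean share of at least 10%). Subcluster 3 had 3 higher and 2 lower, beside 13.1% and 17.1% of all genes (17.4% and 21.9% of the more widely counted ones). Subcluster 4 had 2 higher and 3 lower, beside 24.7% and 20.3% (31.7% and 22.9%), and subcluster 5 had 5 higher and 2 lower, beside 21.2% and 14.3% (28.1% and 19.6%). The share of members that were higher was thus above both backgrounds in subclusters 0, 3 and 5 and near that of all genes in subcluster 4. The share that were lower was near that of the more widely counted genes in subclusters 3 and 5 and above it in subcluster 4. Of the 9 genes, 3 (Yap1, Lats2 and Stk4) were higher by the mark in one subcluster and lower by it in another, beside 29.1% of the 10979 genes. The median difference of the members was 10.0, 3.7, -2.5 and 10.5 points in subclusters 0, 3, 4 and 5, beside 0.0 over all genes in each. Tead1 and Tead2 gave 6 of the 15 higher values. The counts over all 36 values depend on the mark: with 20 points, 7 were higher and 1 lower.

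**Figure D2:**
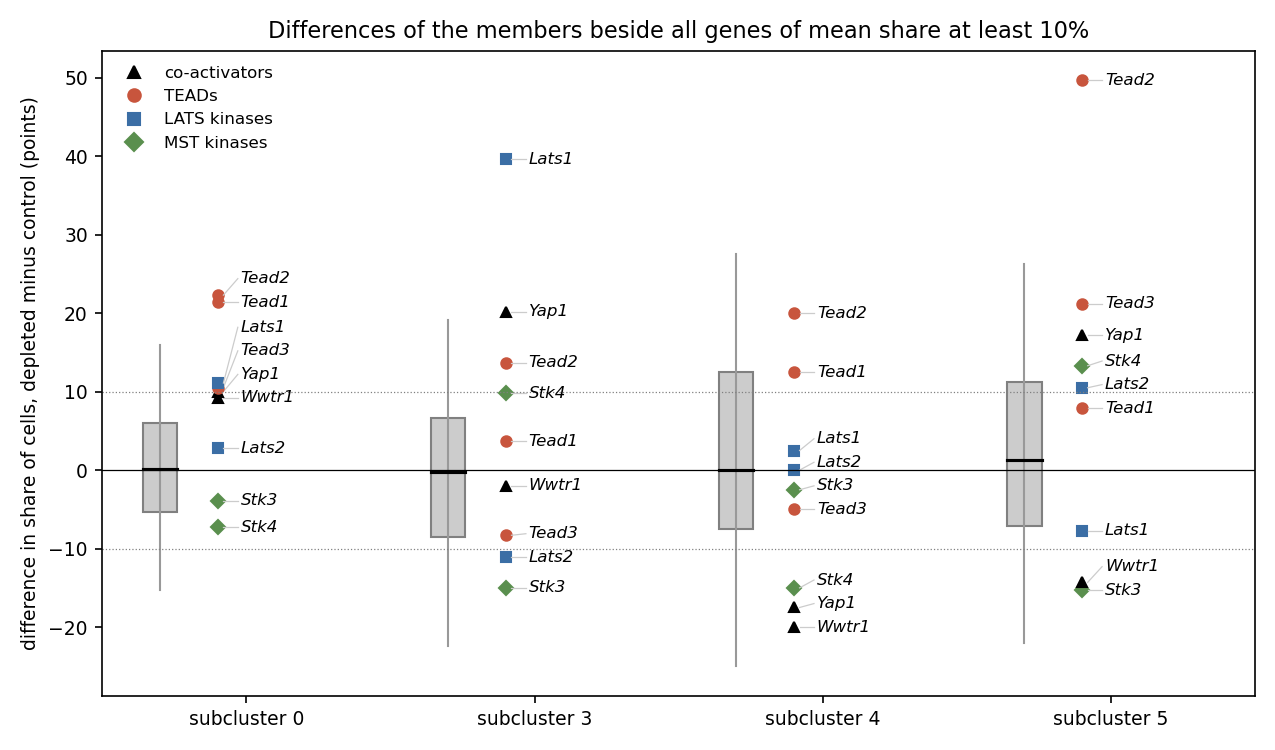
Difference in the share of cells, library labelled depleted minus control, in percentage points (y axis), for each gene in the 4 fibroblast subclusters. The grey box spans the interquartile range of all genes with a mean share of at least 10%, its black line is their median and the thin line runs from the 5th to the 95th percentile; dotted lines mark 10 points. Tead2 lies above the box in all 4 subclusters, and Wwtr1, Yap1 and Stk4 lie lowest in subcluster 4.

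The cluster tables list a gene only when at least 25% of cells of either library had a count and the authors' mean difference reached 0.25 on the log2 scale. A gene missing from a table therefore has no share there, and whether it was rarely counted or nearly equal cannot be told apart from that table. For the fibroblast cluster, the subcluster shares of Wwtr1 (60% to 100%) and Lats2 (52.2% to 71.4%) lay well above 25%. The 10 genes were listed 8 times in the 18 tables, which is 4.44% of the 180 listings possible. Of these 8, 3 (37.5%) had the higher share in the library labelled depleted, beside 45.4% of all listings. A mean of 5.65% of all symbols was listed per table. That percent was 6.08 in cluster 0, 2.09 in cluster 1, 1.05 in cluster 2, 2.36 in cluster 3, 2.96 in cluster 4, 4.63 in cluster 6, 2.77 in cluster 7, 3.58 in cluster 8, 11.1 in cluster 10, 4.8 in cluster 11, 4.28 in cluster 12 and 5.88 in cluster 13, and is given for the other clusters beside their members. Yap1, Wwtr1, Tead3, Tead4 and Stk3 were listed in none, so the level that free RNA would give them in immune cells cannot be read here. Tead1 and Tead2 were each listed once, in the fibroblast cluster itself, which lists 3.99% of symbols. There Tead1 was counted in 54.7% of control cells and in 69.0% of cells from the other library, and Tead2 in 6.7% and 25.1%. Tead2 thus reached the limit of 25% only in the library labelled depleted. These cells include those of the subclusters, so the values are not independent of theirs, and they also include subclusters 1 and 2, whose cells come mostly from 1 genotype each. The part of that makeup in the gaps was not tested. Of the 605 genes that cluster 5 lists, 44.0% had a higher share in the library labelled depleted.

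The kinases were listed only outside the fibroblasts. Lats1 was counted in 47.1% of control cells and 16.4% of cells of the library labelled depleted in cluster 9, which the study describes as mostly cells of the latter library and whose table lists 8.58% of symbols. Lats2 was listed in 3 populations: in cluster 15, which the study left unnamed, at 12.5% and 45.5%, in cluster 17, the dendritic cells, at 30% and 0%, and in cluster 18, neutrophils, at 27.3% and 11.8%. It was higher in the first of these and lower in the other two. Stk4, the MST kinase known for its role in lymphocytes, was listed in cluster 14, the natural killer cells, at 65.8% and 61.5%, and in cluster 18 at 63.6% and 35.3%. The shares of these tables are coarse, with values at least 5.8 points apart in the control library of cluster 9, 9.0 points apart in the library labelled depleted of cluster 17 and 9.0 points apart in the control library of cluster 18. These tables list 9.06%, 12.6%, 9.39% and 6.39% of symbols in clusters 15, 17, 18 and 14. The median difference over all listed genes was -0.6, -13.6, -11.8 and 0.0 points in these 4 clusters, in the same order. In cluster 9 it was -13.2 points. Listed genes were thus mostly lower in the library labelled depleted in clusters 9, 17 and 18.

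**Figure D3:**
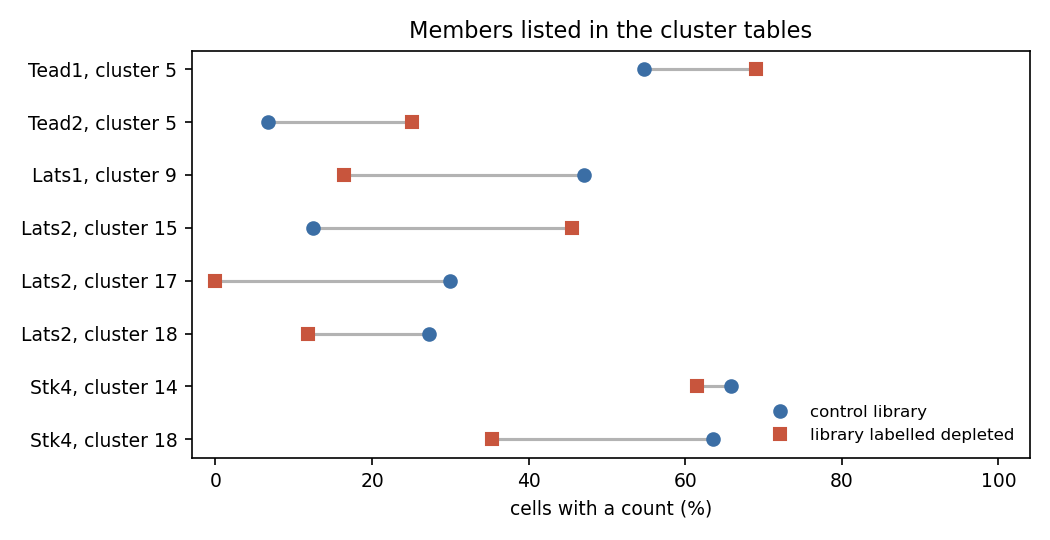
Percent of cells with a count (x axis) for the 8 listings of these genes in the cluster tables (rows), with blue circles for the control library and red squares for the library labelled depleted; each point is 1 library without error bar. Only Tead1 and Tead2 in the fibroblast cluster and Lats2 in cluster 15 lie higher in the library labelled depleted.

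The other genes of the pathway gave the setting for these values. Of a list of 48 symbols for scaffolds, upstream kinases, junction proteins, phosphatase subunits and TEAD cofactors, 45 have a row in the subcluster tables. Vgll1 and Vgll2 have none, and neither has Map4k6, another name for Mink1, which is counted once under that symbol. In subcluster 0, 6 were higher and 6 lower by at least 10 points, in subcluster 3 4 and 9, in subcluster 4 15 and 11, and in subcluster 5 17 and 6. Over all genes the percents were 10.8 and 9.85, 13.1 and 17.1, 24.7 and 20.3, and 21.2 and 14.3 in the same order, and over genes of a mean share of at least 10% they were 14.7 and 12.9, 17.4 and 21.9, 31.7 and 22.9, and 28.1 and 19.6. The medians of 0.5, 0.0, 0.0 and 6.2 points lay near the 0.0 of all genes except in subcluster 5. Mob1a, the co-factor of the LATS kinases, was higher by 13.5, 15 and 27.9 points in subclusters 3, 4 and 5 and lower in subcluster 0, with a difference of -6.9 points. Limd1, a LIM protein that binds LATS kinases, was higher by 17.4, 15 and 37.9 points in subclusters 0, 4 and 5 and differed by -2.2 points in subcluster 3. Its relative Ajuba was higher by 12.9, 21.1 and 15.1 points in subclusters 0, 3 and 5 and lower in subcluster 4, with a difference of -25 points. In all, 560 of the 10979 more widely counted genes (5.1%) were higher by that much in at least 3 of the 4 subclusters.

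Sav1, the scaffold of the MST kinases, was counted in 39.1% of control cells and 76.2% of the other cells in subcluster 5, and in 47.6% and 40.6%, 46.7% and 56.5% and 30% in both libraries in subclusters 0, 3 and 4. Lower by at least 10 points in 3 subclusters were Wwc2, of the KIBRA family of upstream activators, the kinase Taok2 and the protocadherin Dchs1. Over the 10979 genes 3.93% were lower by that much in at least 3 subclusters. Wwc2 differed by -13.0, -10.0 and -12.5 points in subclusters 0, 4 and 5 and by 7.6 points in subcluster 3. Taok2 differed by -11.4, -11.9 and -33.2 points in subclusters 0, 3 and 5 and by 5.0 points in subcluster 4, and Dchs1 by -15.2, -12.4 and -10.0 points in subclusters 0, 3 and 4. Vgll4, which competes with YAP for TEAD proteins, was counted in 43.3% and 73.9% of cells in subcluster 3 and in 57.5% and 90% in subcluster 4, with nearly equal shares in subclusters 0 (62.8% and 65.6%) and 5 (56.5% and 57.1%). The 14-3-3 genes Ywhaz and Ywhab, whose products hold phosphorylated YAP in the cytoplasm, and the phosphatase subunit Ppp2ca had the highest mean shares of the list, 100%, 99.9% and 97.3%. 

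**Figure D4:**
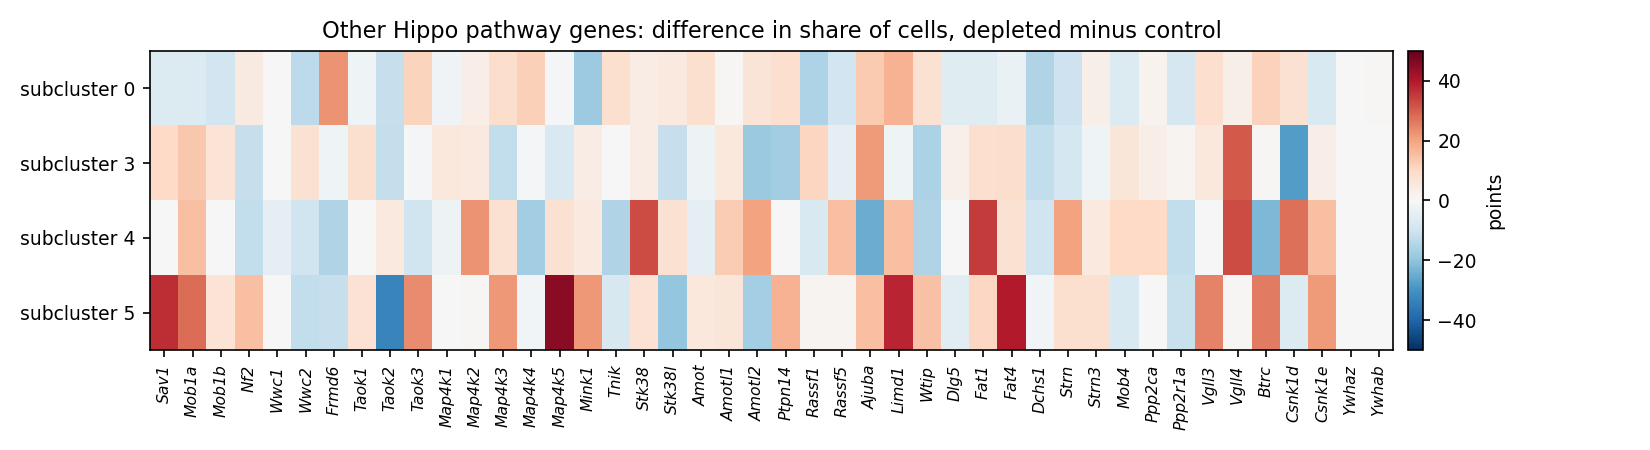
Difference in the share of cells, library labelled depleted minus control, in percentage points (colour), for other Hippo pathway genes with a row (columns) in the 4 fibroblast subclusters (rows). Red marks a higher and blue a lower share in the library labelled depleted, each cell being 1 library against 1; Mob1a is red in 3 of the 4 rows and Dchs1 blue in all 4.

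Outside the fibroblasts 23 of these genes were listed in cluster tables, 60 times in all, with a higher share in the library labelled depleted 36 times and a lower one 24 times. The 60 listings are 6.94% of those possible for 48 symbols in 18 tables, beside 5.65% for all symbols, and 45.4% of all listings had the higher share in the library labelled depleted. The tables as a whole lean either way. The median difference of all listed genes ran from -13.6 points in cluster 17 to 12.15 points in cluster 4, and was 9.3 points in cluster 0. Rassf5, an adaptor that binds MST1, was listed most often, in 7 tables, and was higher in 6 of them, from 36.4% to 70.6% in cluster 18 at the widest, and lower in cluster 8 (53.2% and 47.9%). Taok1, a kinase upstream of MST, was listed in 4 tables and higher in each, as in cluster 15 (40.6% and 77.3%). The kinase Map4k4, which can phosphorylate LATS kinases in place of MST, went both ways over 5 tables: its share was 81.8% and 44.1% in cluster 10, a T cell cluster made up mainly of cells of the library labelled depleted per the study, and 25.3% and 46.2% in cluster 14, the natural killer cells. Stk38, a relative of the LATS kinases, was lower in clusters 4, 8 and 13 and higher in clusters 0 (53.8% and 64.9%) and 6, and Ppp2ca was higher in cluster 4 (35.5% and 52.2%) and lower in its 4 other tables. Taok3 and Strn3 were listed in 4 tables each, Ppp2r1a and Vgll4 in 3 each, and Map4k1, Limd1, Mob4, Csnk1d, Csnk1e and Ywhaz in 2 each. Sav1, Mob1a, Map4k5, Tnik, Stk38l, Strn and Ywhab were listed in 1 table each, none of them cluster 5.

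A list of 22 YAP/TAZ target genes, 3 of them shared with the lists above (Lats2, Amotl2 and Ptpn14), has 21 with a row. In subclusters 0, 3, 4 and 5 these were higher by at least 10 points 5, 2, 7 and 7 times and lower 0, 4, 2 and 5 times, with medians of 1.6, -0.3, 0.0 and 4.8 points. Over all genes 10.8%, 13.1%, 24.7% and 21.2% were higher and 9.85%, 17.1%, 20.3% and 14.3% lower in these subclusters, and over the more widely counted genes 14.7%, 17.4%, 31.7% and 28.1% were higher and 12.9%, 21.9%, 22.9% and 19.6% lower. Tgfb2, a TGF-beta ligand, was the single target listed in cluster 5, at 32.9% of control cells and 60.4% of the other cells. Its shares were 48.3% and 71.9% in subcluster 0, 56.7% and 56.5% in subcluster 3, 17.5% and 60% in subcluster 4 and 60.9% and 76.2% in subcluster 5. Crim1 was higher by 15.2, 22.5 and 12.8 points in subclusters 0, 4 and 5 and differed by -3.5 points in subcluster 3. Some targets were lower by at least 10 points in a single subcluster. The kinase Nuak2 was counted in 39.1% and 4.8% of cells in subcluster 5 and differed by 12.2, 6.3 and 10.0 points in subclusters 0, 3 and 4. Ccn1, Ccn2 and F3, which encodes tissue factor, were picked out after their values were seen. F3 was counted in 47.8% and 9.5% of cells in subcluster 5 and differed by at most 2.5 points in size elsewhere. Ccn1 differed by 1.6, 4.8, -2.5 and -21.2 points in subclusters 0, 3, 4 and 5 and Ccn2 by 10.2, -13.7, -7.5 and -2.1 points. The targets Axl, Asap1, Myof, Dock5, Gadd45a and Nuak2 were listed outside cluster 5, in 2, 3, 2, 1, 1 and 1 tables, and Crim1 in 2. With Lats2 and Tgfb2 the targets were listed 16 times, 4.04% of the 396 listings possible, beside 5.65% for all symbols. Of the 16, 7 (43.8%) had the higher share in the library labelled depleted, beside 45.4% of all listings. Axl, a receptor tyrosine kinase, was higher in both of its tables, the macrophage clusters 0 (11.3% and 35.1%) and 3 (48.2% and 61.3%), and Asap1 and Myof were lower in all of theirs. The median difference over all listed genes was 9.3 and 3.7 points in clusters 0 and 3. For the tables of Asap1, clusters 9, 13 and 17, it was -13.2, 4.6 and -13.6 points. For those of Myof, clusters 11 and 12, it was -4.8 and 0.0 points. Ccdc80, Myof and Axl had the highest mean shares of the targets, 100%, 92.0% and 91.3%.

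Genes whose shares ran most alike with those of Yap1, Wwtr1 and Tead1 over the 8 populations were taken from 10674 genes by Pearson's r. For Yap1 they were Brat1 (r = 0.967), BC024978 (0.917) and B3gnt9 (0.916), for Wwtr1 Myh9 (0.964), Smim15 (0.955) and Srp19 (0.946), and for Tead1 Ndufb4c (0.917), Tgfb2 (0.895) and Nr1d1 (0.895). The 8 points share 2 libraries and their depth, each r was among the highest of all those computed, and none carries a p-value. Tgfb2 appears here among genes taken for their likeness to Tead1, and both were listed in the fibroblast cluster.

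The remaining marker lists moved with the libraries as follows. The summed share of 7 fibroblast markers ran from 466.2 to 617.5 in control subclusters and from 500.0 to 662.0 in the library labelled depleted, and that of 3 epicardial markers from 104.3 to 241.3 and from 19.1 to 250. In subcluster 5, where Tead2 differed most, Wt1 was counted in 73.9% of control cells and 14.3% of the other cells, and the epicardial sum was 104.3 and 19.1. The sum of 2 T cell markers was 13.0 to 16.7 in the control library and 15.6 to 57.2 in the other, Trac having no row. For 5 endothelial markers it was 21.6 to 60 and 23.9 to 56.2, for 5 mural markers 20 to 56.5 and 9.6 to 56.2, for 4 cardiomyocyte markers 17.3 to 35.0 and 3.1 to 20 and for 3 B cell markers 10.0 to 17.3 and 0 to 15.6. The part of these cell types in the member values was not tested.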

How the data were processed

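Interstitial cells of infarcted ventricles were sorted for live nucleated cells and profiled with the 10x Chromium system in 2 libraries. The authors aligned reads with Cell Ranger (version 6.1.1 per the labels) to NCBI GRCm39, Annotation Release 109, with reporter sequences added, combined both libraries without depth normalization, removed genes with a UMI in fewer than 20 cells and low-quality cells, and applied SCTransform in Seurat (4.0.6). No doublet caller is named in their methods. They re-clustered cluster 5 alone and compared the libraries within clusters. The values used here are the fractions of cells with a corrected count above 0, as deposited by the authors for each library, printed as percents. The tables also hold the authors' own comparisons (average log2 fold changes, p-values and adjusted p-values), which were not used, so a share may move without, or against, the mean level. Not analysed here were cluster 16, subclusters 1 and 2 of the fibroblasts, and barcodes that the libraries may share. A pathway gene and a marker gene of the lists are not reported here, and the pathway counts include the former.

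Differences were taken in percentage points with Python 3.11.15 and pandas 2.3.3. With 1 library per group there was no test, p-value or standard error, and the depth behind each share is not given. Counting was tested on simulated data. The members and lists were chosen with earlier results of these data known. Named beside the 10 members were list genes that a cluster table lists, that differ by 10 points the same way in at least 3 subclusters or that have the 3 highest mean shares, and the 3 genes most like Yap1, Wwtr1 and Tead1. Alternatives were limits of 5 and 20 points, centring on the table median of genes with a mean share of at least 10%, a log2 ratio of shares (1 point added, limit 0.5) and leaving out each subcluster.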

Additional observations from a re-analysis of the deposited data

Results flagged for a closer look

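Of the 9 genes with values, 4 were higher by at least 10 points in one cell population of the library labelled depleted and lower by at least 10 points in another, with 1 library per genotype in each, so the difference between populations was not tested. Yap1 differed by 20.2 points in fibroblast subcluster 3 and by -17.5 points in subcluster 4, where the shares of the library labelled depleted stand 10 points apart. Lats1 differed by 39.6 points in subcluster 3 and by -30.7 points in cluster 9. Lats2 differed by 33.0 points in cluster 15 and by -30 points in cluster 17, the dendritic cells, where none of the cells of the library labelled depleted had a count. Stk4 differed by 13.3 points in subcluster 5 and by -28.3 points in cluster 18, neutrophils. Over the 4 subclusters alone Yap1, Lats2 and Stk4 went both ways by this mark, while Lats1 did so only through cluster 9. Among genes of a mean share of at least 10%, 29.1% went both ways over the 4 subclusters, so such a pattern is common in these tables. No such percent was taken with the cluster listings included. Cluster and subcluster shares come from separate normalizations, and listed genes had passed limits on size and on share. Lats1 in cluster 9 and Lats2 in clusters 15 and 17 reached the 25% limit in 1 library only, which favours wide gaps. The median difference of all listed genes was -13.2, -0.6, -13.6 and -11.8 points in clusters 9, 15, 17 and 18.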

How the results depend on the processing

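No paired analysis was possible because a genotype has a single library here. Of 57 recomputed counts 35 stayed within 1.5 times the count reported. Over all subclusters the members higher by 10 points, 15, became 7 with a limit of 20 points and 9 with the log2 ratio of shares. In subcluster 0 they became 2 and 2 under these settings, in subcluster 4 they became 1 and 1, and in subcluster 5 they became 2 and 3. The members lower, 7, became 11 with a limit of 5 points, 1 with 20 points, 4 with the log2 ratio and 4 without subcluster 4. By subcluster the lower members became 1 in subcluster 0 with 5 points, 0 in subcluster 3, 1 in subcluster 4 and 0 in subcluster 5 with 20 points, and 1 in subcluster 3 and 1 in subcluster 5 with the log2 ratio. With 5 points the pathway list gave 75 higher and 52 lower values and the targets 18 lower. Listings of members fell to 3 when both libraries had to reach 25%. Centring moved 3 of 36 single differences across the mark (Yap1 in subcluster 0 at 9.9, Lats2 in subcluster 5 at 9.2 and Stk4 in subcluster 3 at 10.0 points) and turned the direction of no value past it. The depth behind each share is not given, which limits all of them, and the cause of these shifts was not tested.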

Other observations

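The fibroblasts were normalized once with all cells and again alone, and their shares differ between both sets of tables. In the fibroblast cluster Tead2 was counted in 6.7% of control cells, below its share in each of the 4 subclusters of the control library (15.2% to 30%), and Tead1, at 54.7%, was below each of its own (67.5% to 83.3%). The same held for 399 of the 605 genes of cluster 5 in the control library (66.0%) and for 358 in the library labelled depleted (59.2%). Cells of subclusters 1 and 2, which are in cluster 5 and not analysed here, are part of that comparison, and normalization and cell makeup cannot be told apart. The direction for Tead1 and Tead2 was the same in both kinds of table, which share cells. Tead2 reached the 25% limit of cluster 5 only in the library labelled depleted (25.1%). Its direction there was thus set by the limit, and the likeness adds no separate support.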
